A study of Mus musculus with 6 samples.

Results

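The genes described are the 6 members of the mouse Tcl1 cluster, Tcl1, Tcl1b1, Tcl1b2, Tcl1b3, Tcl1b4 and Tcl1b5. They were taken by gene name from a deposited table of 22416 genes, and all 6 were found. Their ribosome footprints, fragments of mRNA protected by a bound ribosome when the rest is digested, were measured by Ribo-lite, a ribosome profiling method for low cell input. The libraries came from wild-type mouse oocytes in 3 groups of 2 libraries each. WT_FGO were fully grown oocytes with an intact nucleus (germinal vesicle, GV, stage), WT_MII were control oocytes matured in culture to metaphase II (MII), and Treat_MII were MII oocytes of a treated culture. For the last group the labels say no more than treated. The agent named in the methods of the study is BYBX, a ligand that holds RNA G-quadruplexes (rG4s, folded stretches of G-rich RNA) in their folded form, and control oocytes were given its solvent, DMSO. All oocytes came from 4-week-old females given 5 IU of PMSG, a gonadotropin that makes follicles grow, 44 h before collection, and each library was made from 500 pooled oocytes. The study describes the Ribo-lite libraries as biological replicates, but the labels do not say which collections they came from, so p-values measure the spread between these libraries.

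Tcl1 encodes a small protein that binds the pleckstrin homology domain of the kinase Akt and raises its activity. It is best known as an oncogene of T-cell leukaemia, and it is also a maternal product of the mouse oocyte, where its loss impairs the early cleavages of the embryo. The Tcl1b genes are paralogs of Tcl1 that are present in several copies in the mouse and are expressed mainly in oocytes and early embryos. Fully grown oocytes do not transcribe, so new protein during maturation comes from stored mRNAs. Many of these are recruited to ribosomes when their poly(A) tails are lengthened, which depends on U-rich elements near the polyadenylation signal.

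The 6 genes lie side by side on chromosome 12, over 76.8 kb of the GRCm38 assembly, with no other annotated gene between them and gaps of 4.46 to 9.90 kb. Tcl1b2 (chr12:105146014-105155225) is followed by Tcl1b1 (chr12:105159690-105166625), Tcl1b5 (chr12:105176344-105181145), Tcl1b3 (chr12:105191043-105195612) and Tcl1b4 (chr12:105201957-105206993), all on the plus strand. Tcl1 (chr12:105216750-105222793) closes the cluster on the minus strand and thus points towards the others. The principal transcript of each gene has 4 exons and a coding sequence of 351 to 369 bases.

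The starts of the coding sequences are shown first, because the members are told apart by such stretches. The first 30 coding bases of the GRCm38 transcripts are given 5′ to 3′, with the start codon in capitals.
Tcl1: ATGgctacccagcgggcacacagggcagag
Tcl1b1: ATGgctgctgcagcttttgatcccctgggg
Tcl1b2: ATGgctgctgcaggtttttatcctccgagg
Tcl1b5: ATGgctgctgtgtctgttgatccccagagg
Tcl1b3: ATGgctgattcagttcattttccctggatg
Tcl1b4: ATGgctgattcagttcgttttccctgtatg
The windows were chr12:105222623-105222652 on the minus strand for Tcl1 and, on the plus strand, chr12:105159761-105159790 for Tcl1b1, chr12:105147090-105147119 for Tcl1b2, chr12:105176415-105176444 for Tcl1b5, chr12:105191101-105191130 for Tcl1b3 and chr12:105202479-105202508 for Tcl1b4. Tcl1b3 and Tcl1b4 differed at 2 of these bases and Tcl1b1 and Tcl1b2 at 5, whereas Tcl1 differed from each of the others at 19 to 23.

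Over whole coding sequences, the Tcl1b genes were 71.4% to 86.3% identical to each other (median 76.4% of 10 pairs) and 49.9% to 51.9% identical to Tcl1. Their 3′-UTRs were closer, at 87.9% to 96.6% (median 91.4%), although these do not code for protein, and were 41.6% to 42.0% identical to that of Tcl1. The 5′-UTRs were 68.1% to 89.5% identical among the Tcl1b genes.

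**Figure D1:**
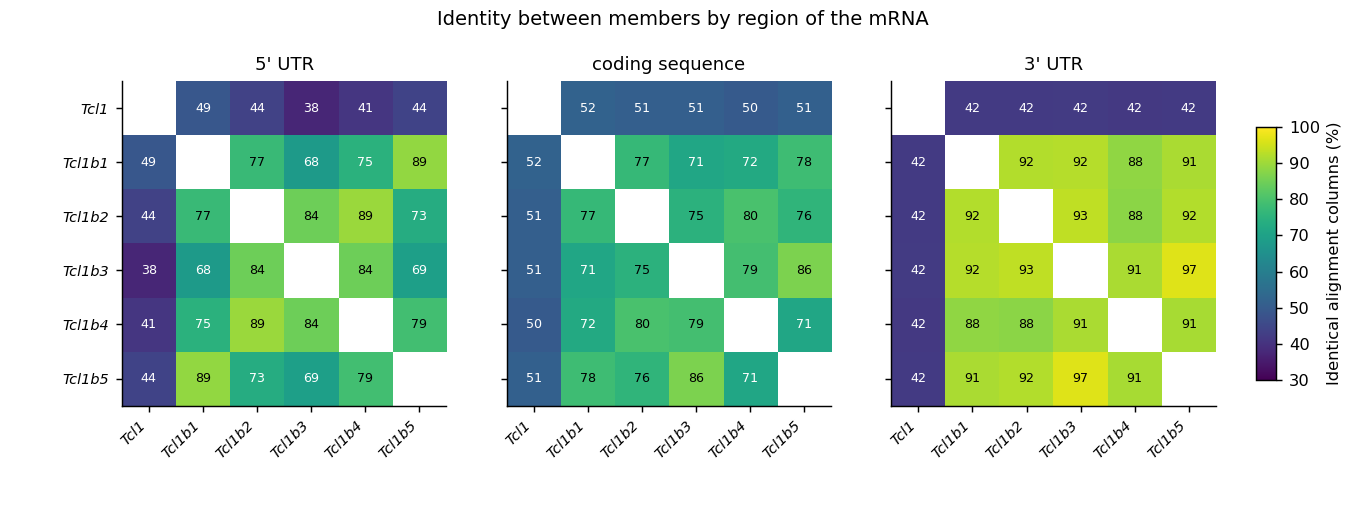
Percentage of identical alignment columns between each pair of members, in the 5′-UTR, the coding sequence and the 3′-UTR of the principal transcripts (colour scale from 30 to 100%). Tcl1 stands apart in every region, and the Tcl1b genes are most alike in the 3′-UTR, where the closest pair reaches 96.6%.

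A footprint is short, so reads from identical stretches cannot be assigned to a single paralog. In 28-base words, about the length of a footprint, none of the coding words of Tcl1 (555 words) or Tcl1b2 (270 words) occurred anywhere else in the genome. The shared part was 5.02% of the words of Tcl1b4, 9.03% of Tcl1b1, 31.2% of Tcl1b3 and 31.2% of Tcl1b5. The longest shared run, between Tcl1b3 and Tcl1b5, had 72 bases. How the authors' counting treated such reads is not given in the sources used here. The levels of Tcl1b3 and Tcl1b5 are therefore uncertain, relative to each other and to the other members. The summed reads of the family do not depend on how reads were split among its members. They would change if shared reads were discarded or counted more than once. For 16 of the shared words of Tcl1b1, the coding exons of the other members did not account for all copies in the genome. Whether the remaining copies lay in other parts of the 6 genes was not checked.

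The libraries were shallow and of unequal depth. Reads recovered from the deposited values numbered 94309 to 107251 in WT_FGO, 164972 to 230907 in WT_MII and 275604 to 331304 in Treat_MII, and Spearman's rho between the libraries of a group was 0.500, 0.608 and 0.732 across 15127 tested genes, which are not independent replicates, and 0.850, 0.853 and 0.959 across the 2706 genes with at least 60 reads. The oocyte label was checked against 13 oocyte genes, whose summed level in FPKM (fragments per kilobase of coding sequence, scaled to the reads of the library) was 27245 to 41522 in WT_FGO, 19772 to 24147 in WT_MII and 29525 to 30528 in Treat_MII. Without Oosp1, which had 122 to 185 FPKM in WT_FGO and 11263 to 15029 in WT_MII, the sum of the other 12 was 27059.9 to 41399 in WT_FGO, 8509 to 9118 in WT_MII and 15066 to 15434 in Treat_MII. A list of 17 genes of granulosa and cumulus cells, the somatic cells around the oocyte, was summed in the same way. It gave 879 to 1881 FPKM in WT_FGO, 430 to 2253 in WT_MII and 333 to 356 in Treat_MII. The ranges of WT_FGO and WT_MII thus overlapped. Inha, Amh, Fst and Inhba were highest in WT_FGO replicate 2, at 747, 196, 143 and 139 FPKM. Hsd17b1, Kitl, Cyp19a1, Nr5a2 and Ptx3 were instead higher in WT_MII replicate 1 than in WT_FGO replicate 2. The part of these genes in the comparisons with WT_FGO was not tested. Lymphocytes are the other cells in which Tcl1 is known, and 7 of their genes summed to 7.62 to 62.8 FPKM, with Cd3e and Cd79a at 0 in all 6 libraries.

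Maturation was examined first, by setting WT_MII against WT_FGO. All 6 members had few footprints in GV oocytes and many in MII oocytes. In WT_FGO the family held 21 reads in the first library, 0.0223% of its reads (95% Wilson interval 0.0146 to 0.0340), and 25 reads in the second, 0.0233% (0.0158 to 0.0344). The WT_MII libraries held 1323 reads, 0.802% (0.760 to 0.846), and 2631 reads, 1.14% (1.10 to 1.18). Both MII libraries lay far above both GV libraries, by much more than the libraries of a group differed. Intervals and floors given here cover counting error only, since PCR copies are not independent molecules.

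The summed level was 450.0 and 485 FPKM in WT_FGO against 15881 and 22866 FPKM in WT_MII, a 41.5-fold ratio of group means. On the log2 scale this ratio was 5.37, with a replicate SD of 0.38. Since the values are scaled to the total of each library, more footprints on these mRNAs and fewer on all others could not be told apart. The amount of RNA per oocyte was not measured in these libraries.

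**Figure D2:**
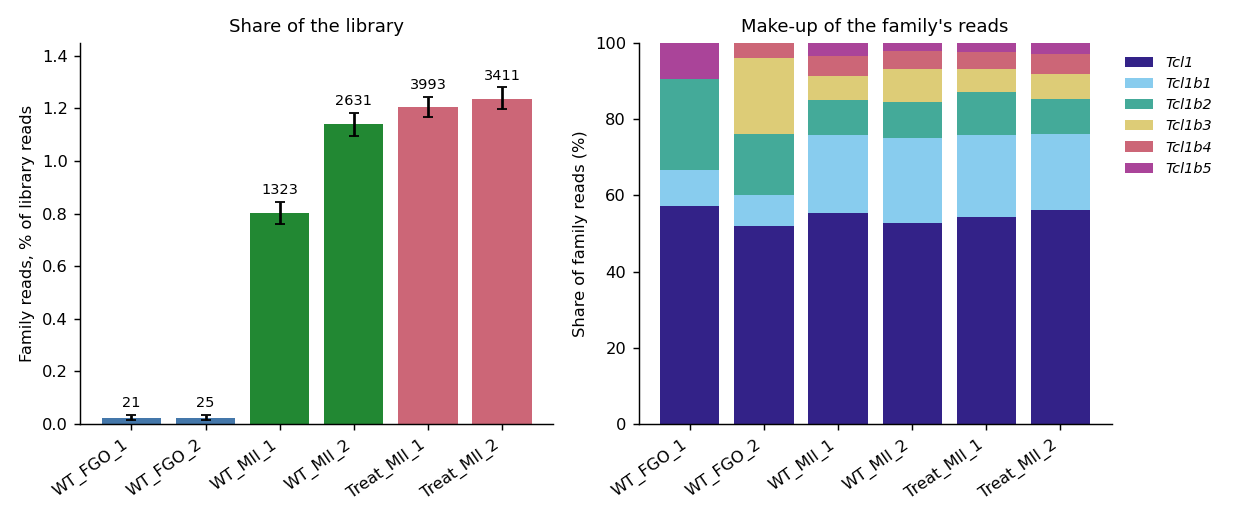
Left, reads of the 6 members as a percentage of all recovered reads in each library, with 95% Wilson intervals and the number of reads above each bar. Right, the share of each member among these reads. The share was at most 0.0233% in the WT_FGO libraries and at least 0.802% in the 4 MII libraries, and Tcl1 gave the largest part of the family's reads in every library.

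Tcl1, the Akt coactivator, had the highest level in every library. It stood at 191 and 182 FPKM in the WT_FGO libraries (12 and 13 reads), 6671 and 9006 FPKM in WT_MII (733 and 1385 reads), with 9835 and 10449 FPKM in Treat_MII (2170 and 1918 reads). The GV libraries were thus low and close to each other, and no MII library came near them. Among all genes ordered by FPKM, Tcl1 ranked 601 and 678 in WT_FGO, 10 and 7 in WT_MII, and 8 and 4 in Treat_MII. The increase from WT_FGO to WT_MII was 5.37 ± 0.20 (SE, n = 2 per group) on the log2(FPKM + 1) scale (adjusted p = 0.000604 in limma, which fits all genes together).

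Tcl1b1 was the strongest of the paralogs in MII oocytes. Its level was 49.4 and 43.5 FPKM in WT_FGO (2 reads in each library), 3829 and 5946 FPKM in WT_MII, with 6037 and 5726 FPKM in Treat_MII. The GV values rest on very few reads but were alike in both libraries. The increase in WT_MII was 6.66 ± 0.27 (SE, n = 2 per group) on the log2 scale (limma adjusted p = 0.000604). As a rate of pooled reads, Tcl1b1 was 109-fold higher in WT_MII than in WT_FGO, with an exact 95% interval from 42.6 to 403, against 43.1-fold (29.1 to 66.8) for Tcl1.

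Tcl1b2, which opens the cluster and lies farthest from Tcl1, showed the smallest fitted increase of the family. It had 151 and 106 FPKM in WT_FGO (5 and 4 reads), 2072 and 3072 FPKM in WT_MII, with 3878 and 3267 FPKM in Treat_MII. All MII values exceeded both GV values. The increase in WT_MII was 4.31 ± 0.30 (SE, n = 2 per group; limma adjusted p = 0.00194), and the ratio of read rates was 20.9 (exact 95% interval 10.9 to 46.0). In limma the 95% interval of its log2 change, 3.58 to 5.03, lay below that of Tcl1b1, 6.01 to 7.30. In the fit with voom weights described below they overlapped, at 2.92 to 5.52 and 4.80 to 8.04. The intervals of the read rates overlapped as well, since that of Tcl1b1 began at 42.6. The difference between the members was not tested.

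The remaining 3 paralogs were each listed at 0 in a GV library. Tcl1b3 had 0 and 127 FPKM in WT_FGO (0 and 5 reads), 1408 and 2662 FPKM in WT_MII, with 1971 and 2151 FPKM in Treat_MII. Tcl1b4 had 0 and 25.6 FPKM in WT_FGO (0 reads and 1 read), 1132 and 1511 FPKM in WT_MII, with 1501 and 1794 FPKM in Treat_MII. Tcl1b5 had 58.4 and 0 FPKM in WT_FGO (2 and 0 reads), 768 and 668 FPKM in WT_MII, with 782 and 1029.5 FPKM in Treat_MII. For each of them the MII libraries were all far above the GV libraries, but the GV libraries differed from each other, at 0 reads against 1 to 5.

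Of these, Tcl1b4 passed the test, with an increase of 7.99 ± 1.39 (SE, n = 2 per group; limma adjusted p = 0.0284). It was 5.62 without WT_FGO replicate 1 and 10.35 without WT_FGO replicate 2, and it did not pass without either WT_MII library, without either Treat_MII library, with a pseudocount of 0.1 or without the mean-variance trend. Tcl1b3 and Tcl1b5 did not pass, with differences of 7.42 ± 2.04 (limma adjusted p = 0.0925) and 6.54 ± 1.72 (limma adjusted p = 0.0837). Without WT_FGO replicate 1 these differences were 3.92 and 9.49, and without WT_FGO replicate 2 they were 10.92 and 3.59. Both members then passed, but with a lone GV library, which is assumed to vary like the other groups, the disagreement between the GV libraries no longer entered the test. In pooled reads the ratio of WT_MII to WT_FGO was 31.6 for Tcl1b3 (exact 95% interval 13.4 to 97.9), 99.3 for Tcl1b4 (17.6 to 3941) and 26.0 for Tcl1b5 (7.01 to 217).

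**Figure D3:**
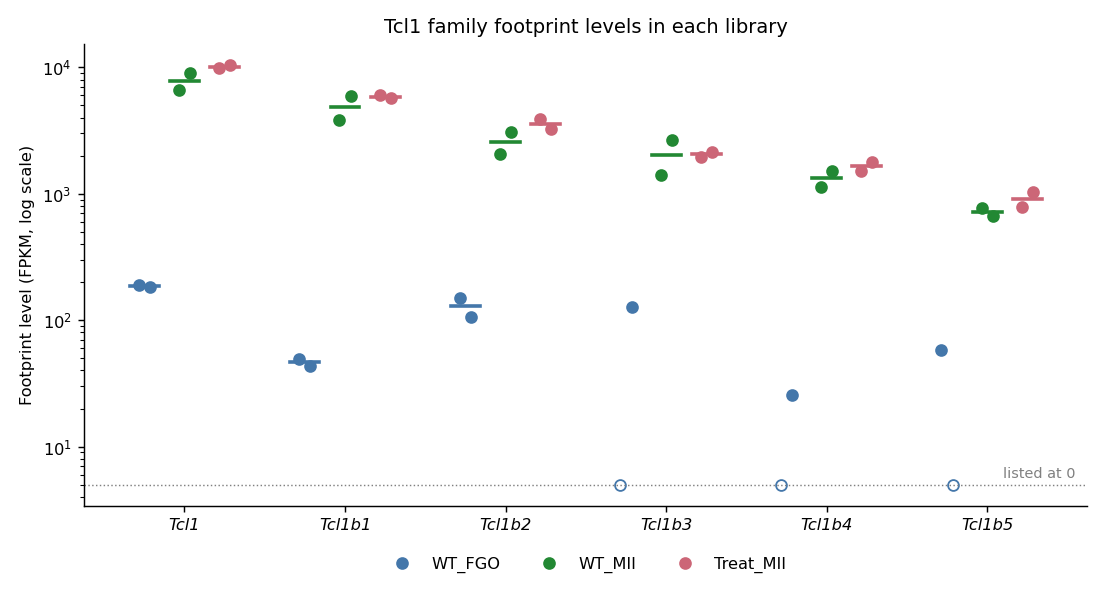
Footprint level (FPKM, log scale) of each member in each library, with filled points for values above 0, open points on the dotted line for values listed at 0, and bars for the mean of groups with no value at 0. Tcl1 spans 182 to 191 FPKM in WT_FGO and 6671 to 10449 FPKM in the 4 MII libraries, and no member's MII points reach down to its WT_FGO points.

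In all, limma called 4 of the 6 members higher in WT_MII and none lower, where 3.67% of the tested genes were called higher and 3.09% lower. All 6 members had an unadjusted limma p under 0.05, and the share of all tested genes with such a p was not computed. The highest of the 6, a limma p of 0.0106 for Tcl1b3, ranked only 1730 among the 15127 tested genes. In all 6, no WT_FGO library reached either WT_MII library, an order found in 15.3% of all tested genes. The median change of the members was 6.60 on the log2 scale, while that of all tested genes was -0.44. The member median includes Tcl1b3, Tcl1b4 and Tcl1b5, whose fitted values rest on a GV library at 0. The summed level of the family differed by 5.37. With voom weights on the recovered reads, an alternative fit that gives values from few reads less weight, all 6 members were called (background 5.52% higher). This fit took the spread almost wholly from all genes together, so the spread between a member's own replicates hardly entered its p-values. The number of calls varied with the libraries used. Without Treat_MII replicate 1, without Treat_MII replicate 2 or with the compared groups alone, 0 members passed, although the differences themselves were the same and only the estimate of the spread was altered. Without either WT_MII library 3 passed.

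The treated oocytes were next set against the GV oocytes, a comparison that shares its libraries with the others. The increase was 5.76 for Tcl1 (limma adjusted p = 0.000514), 6.96 for Tcl1b1 (0.000514), 4.80 for Tcl1b2 (0.00169) and 8.31 for Tcl1b4 (0.034), and these 4 were called (2.86% of tested genes were called higher). The differences of Tcl1b3 and Tcl1b5 were 7.51 and 6.86 with limma adjusted p-values of 0.114 and 0.0966. Without WT_FGO replicate 1 the differences of Tcl1b3, Tcl1b4 and Tcl1b5 were 4.00, 5.95 and 9.81, and without WT_FGO replicate 2 they were 11.01, 10.68 and 3.92. Treated oocytes thus also held far more footprints of the family than GV oocytes. Both Treat_MII libraries exceeded both WT_FGO libraries for each member, against 16.6% of all tested genes. With voom weights all 6 were called (background 5.84% higher), and leaving out Treat_MII replicate 1 left 2 called.

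Whether the ligand altered the family was examined by setting Treat_MII against WT_MII. The family took 3993 reads, 1.21% (95% Wilson interval 1.17 to 1.24), in the first treated library and 3411 reads, 1.24% (1.20 to 1.28), in the second. The first of these intervals overlapped that of WT_MII replicate 2, and WT_MII replicate 1 lay below the other 3 MII libraries. The summed level was 24003 and 24417 FPKM, a mean 1.25-fold that of WT_MII (0.32 on the log2 scale, replicate SD 0.37). The difference was therefore within the spread between replicates.

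No member was called in limma, where 0% of all tested genes were called. None of the 6 had an unadjusted limma p under 0.05, a share not computed for all tested genes, and the adjusted p-values ran from 0.931 to 1. The lowest unadjusted limma p, 0.0978 for Tcl1, ranked 1519 among the 15127 tested genes. The fitted difference was 0.39 for Tcl1 (95% interval -0.10 to 0.87), 0.30 for Tcl1b1 (-0.35 to 0.95) and 0.50 for Tcl1b2 (-0.22 to 1.22), so these intervals extend to more than a doubling for Tcl1b2 and do not reach a halving for any of the 3. For Tcl1b3, Tcl1b4 and Tcl1b5 the differences were 0.09, 0.33 and 0.32, and the intervals reached beyond 3 on the log2 scale in both directions, which says little about them. All 6 differences were above 0, and the median was 0.33 against 0 for all tested genes. Both treated libraries exceeded both WT_MII libraries for 3 members, Tcl1, Tcl1b2 and Tcl1b5, while 16.2% of all tested genes had this order.

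The voom fit called a single member, Tcl1, at 0.34 (limma adjusted p = 0.0091, 0.447% of genes called higher). Its SE there was 0.083, against 0.198 in the fit without these weights. The difference between the WT_MII libraries in Tcl1 itself hardly entered this call. Counting error alone gave a ratio of pooled read rates of 1.26 for Tcl1 (exact 95% interval 1.19 to 1.33), 1.36 for Tcl1b2 (1.20 to 1.54) and 0.959 for Tcl1b3 (0.829 to 1.11), and these intervals do not include the difference between the WT_MII libraries. Without WT_MII replicate 1 the log2 differences of Tcl1b1 and Tcl1b3 turned to -0.02 and -0.37, and the summed level differed by 0.08. That library also had the highest summed level of granulosa and cumulus genes, 2253 FPKM against 430 in WT_MII replicate 2. Hsd17b1 alone gave 1956 FPKM of the 2253, while Inha, Amh, Fst and Inhba were highest in WT_FGO replicate 2. Of the 17 genes, 7 were higher in WT_MII replicate 1 than in WT_MII replicate 2, 5 were lower, and 5 were at 0 in both, among them Fshr, Lhcgr and Tnfaip6, which were at 0 in all 4 MII libraries. The part of these differences in the result was not tested.

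**Figure D4:**
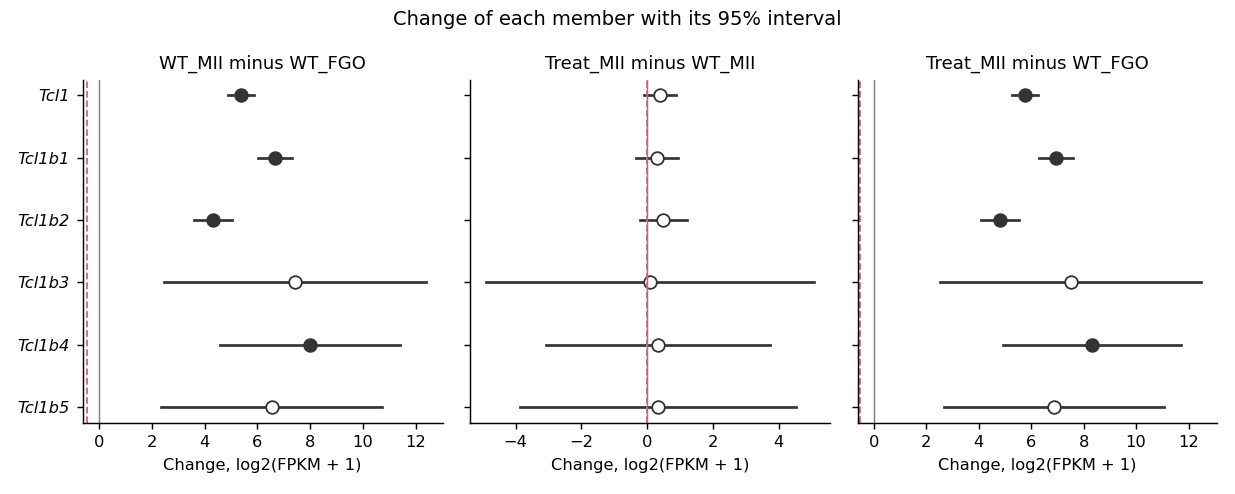
Difference of each member on the log2(FPKM + 1) scale in the 3 comparisons, with 95% intervals from limma, filled points for an adjusted p under 0.05, a grey line at 0 and a dashed line at the median of all tested genes. In both comparisons with WT_FGO 4 members were called, whereas all 6 intervals of Treat_MII minus WT_MII include 0.

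Levels were then compared between members. In each of the 4 MII libraries, control and treated, the FPKM fell in the order Tcl1, Tcl1b1, Tcl1b2, Tcl1b3, Tcl1b4 and Tcl1b5. The places of Tcl1b3 and Tcl1b5 depend on how reads from shared stretches were counted, which is not known. Such stretches made up 31.2% of the coding words of each, against 0% for Tcl1b2 and 5.02% for Tcl1b4. In Treat_MII no neighbours in this order overlapped. In WT_MII the ranges of Tcl1b2 (2072 to 3072 FPKM) and Tcl1b3 (1408 to 2662 FPKM) overlapped, as did those of Tcl1b3 and Tcl1b4 (1132 to 1511 FPKM). The GV libraries shared the first place of Tcl1 and the fourth of Tcl1b1, and differed in the others.

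In the MII libraries the order was the same when reads were divided by the coding length of the principal transcript. The deposited FPKM match a length of 666 bases for Tcl1, the union of its annotated coding exons, against 351 bases in its principal transcript. On the shorter length the level of Tcl1 was 15002 ± 3159 (SD, n = 2) for WT_MII, compared with 19410 ± 832 (SD, n = 2) for Treat_MII, so the distance to the paralogs depends on which exons are used.

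The make-up of the family was followed through each member's share of its pooled reads, with intervals that leave out the spread between libraries. Tcl1 held 54.3% in WT_FGO (95% Wilson interval 40.2 to 67.8), 53.6% in WT_MII (52.0 to 55.1) and 55.2% in Treat_MII (54.1 to 56.3), so its part was alike before and after maturation within counting error. Tcl1b1 held 8.70% in WT_FGO (3.43 to 20.3), 21.8% in WT_MII (20.5 to 23.1) and 20.7% in Treat_MII (19.8 to 21.7). Tcl1b2 went the other way, with 19.6% in WT_FGO (10.7 to 33.2), 9.33% in WT_MII (8.46 to 10.3) and 10.4% in Treat_MII (9.69 to 11.1). Both shifts rest on few GV reads, 4 for Tcl1b1 and 9 for Tcl1b2. By library the WT_FGO intervals of both members overlapped those of WT_MII. For the other 4 members the pooled intervals of WT_FGO and WT_MII overlapped, and with 46 family reads in the GV libraries smaller shifts were not detectable. Between WT_MII and Treat_MII only the intervals of Tcl1b3 were apart, at 7.84% (7.04 to 8.72) and 6.16% (5.63 to 6.73). By library its share was 6.42% and 8.55% in WT_MII and 5.99% and 6.36% in Treat_MII, so the WT_MII libraries differed more from each other than the first of them did from the treated ones. Tcl1b5 gave the smallest part in MII oocytes, 2.58% in WT_MII (2.13 to 3.12) and 2.66% in Treat_MII (2.32 to 3.05). The shares of Tcl1b3 and Tcl1b5 also depend on the unknown counting of reads from shared stretches.

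**Figure D5:**
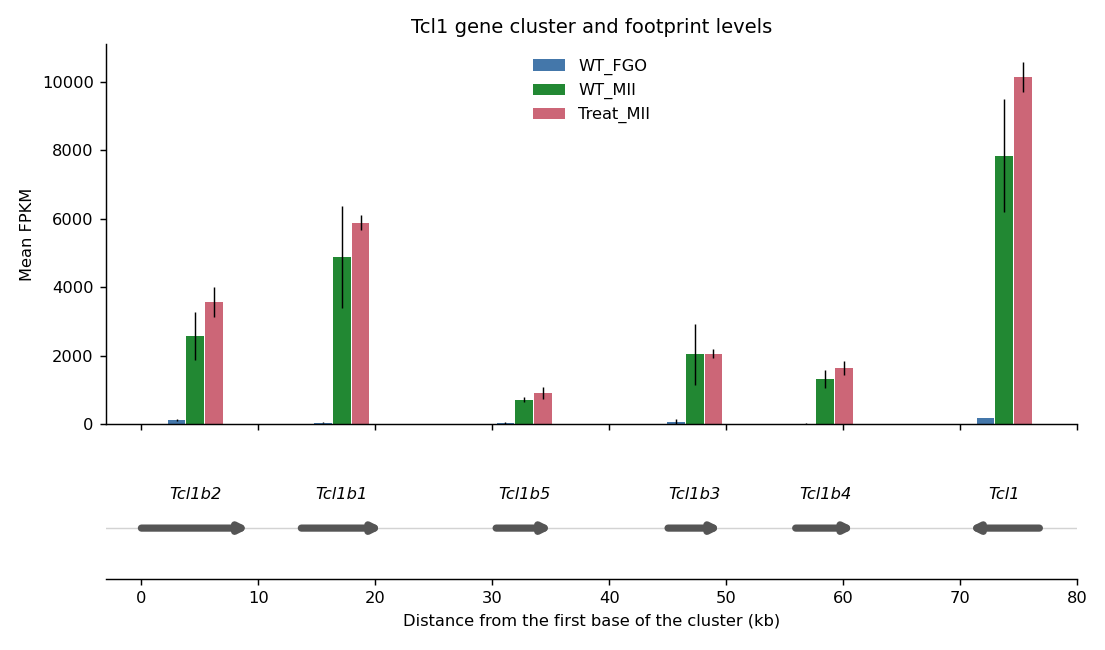
Upper panel, mean FPKM of each member in the 3 groups with the SD of 2 libraries (not drawn below 0). Lower panel, the genes at their distance (kb) from the first base of the cluster, with arrows in the direction of transcription. In MII oocytes the level is highest for Tcl1, at the right end of the 76.8 kb cluster, and lowest for Tcl1b5, which lies between Tcl1b1 and Tcl1b3.

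The ends of the transcripts were read next, since the elements known to lengthen poly(A) tails in oocytes lie there. The last 30 bases of each principal transcript are given 5′ to 3′ in GRCm38, as DNA, with the polyadenylation signal (AATAAA or ATTAAA) and, in the Tcl1b genes, a TTTTACT stretch in capitals.
Tcl1: ttAATAAAgctttgtagaactttaaaattt
Tcl1b1: aactaATTAAActttactgtTTTTACTtaa
Tcl1b2: aagtaATTAAActttactgtTTTTACTtaa
Tcl1b3: aactaATTAAActttattgtTTTTACTtaa
Tcl1b4: aactaATTAAActttactgtTTTTACTtaa
Tcl1b5: aactaATTAAActttactgtTTTTACTtaa
The windows were chr12:105216750-105216779 on the minus strand for Tcl1 and, on the plus strand, chr12:105166596-105166625 for Tcl1b1, chr12:105155196-105155225 for Tcl1b2, chr12:105195583-105195612 for Tcl1b3, chr12:105206964-105206993 for Tcl1b4 and chr12:105181116-105181145 for Tcl1b5. Tcl1b1, Tcl1b4 and Tcl1b5 had the same 30 bases, Tcl1b2 and Tcl1b3 each differed from them at 1 base, and Tcl1 differed from all of them at 21.

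The motifs of the cytoplasmic polyadenylation element, TTTTAT and TTTTAAT in DNA letters, were searched on the sense strand in the last 100 bases of the 3′-UTR. Tcl1 held a single TTTTAT, which began 65 bases before the end of the transcript and 37 bases before its AATAAA. It is shown in capitals in its 30-base window, chr12:105216789-105216818 on the minus strand.
Tcl1: gggaTTTTATgtggttctattttagagata
None of the 5 Tcl1b genes held either motif in this window. The share of all tested genes with an annotated 3′-UTR of this kind that held at least 1 of them was 19.0% of 13773. TTTTACT, a stretch looked for after the sequences were seen, occurred in all 5 Tcl1b genes, after their ATTAAA, and in 2.26% of the genes. These 5 ends are near-copies of each other and do not count as separate cases. A match describes the letters of this window and is not a measured binding site.

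The G-quadruplex motif, defined here as 4 runs of 3 or more G separated by loops of 1 to 7 bases, was absent from the 5′-UTR, the coding sequence and the 3′-UTR of all 6 members. Among 14808 tested genes with such an annotation it occurred in 7.17%, 4.32% and 10.9% of these regions. The absence of these letters does not show that no other kind of rG4 forms in these mRNAs.

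Genes around the cluster, and the family member outside it, were followed for comparison. Of 4 protein-coding genes within 250 kb, Glrx5, a mitochondrial glutaredoxin, had 483 and 442 FPKM in WT_FGO, 57.5 and 57.5 in WT_MII, and 22.9 and 41.3 in Treat_MII. It fell by 2.98 ± 0.43 (SE, n = 2 per group; limma adjusted p = 0.0159) from WT_FGO to WT_MII, opposite to the 6 members. Syne3, a nesprin of the nuclear envelope, differed by -1.41 without passing the test (limma adjusted p = 0.398), and Tunar and D430019H16Rik were listed at 0. Mtcp1, the other TCL1-type gene and not part of the cluster, had 0 to 3 reads in each library, so its level could not be followed.

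The partners of the Tcl1 proteins were examined through a list of 30 genes of the Akt pathway, of which 27 could be tested. In maturation 1 was called higher and 0 lower, a share near that of all tested genes (3.67% and 3.09%), with a median change of -0.05 against -0.44 for all tested genes. The gene called was Mdm2, the ubiquitin ligase of p53 and a target of Akt, with 0 reads in both WT_FGO libraries, 178 and 192 FPKM in WT_MII, with 158 and 148 FPKM in Treat_MII. Against a floor of 3 reads per WT_FGO library, Mdm2 was at least 9.07-fold higher in WT_MII and at least 7.53-fold higher in Treat_MII (limma adjusted p = 0.00185 for maturation). With the treatment, 0 of the 27 were called in limma (0% of all tested genes), and 0 were called with voom weights (0.447% of genes called higher). An unadjusted p under 0.05 was found for 1, and the share of all tested genes with such a p was not computed.

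Akt1 and Akt2, kinases of this pathway, were near the limit of detection. Akt1 had 0 and 25.9 FPKM in WT_FGO, 16.8 and 9.02 in WT_MII and 12.6 and 5.04 in Treat_MII, from 19 reads in all. Akt2 rested on 1 read. Pdpk1, the kinase that activates Akt, had 101 and 94.3 FPKM in WT_FGO, 18.0 and 43.8 in WT_MII and 19.8 and 23.8 in Treat_MII, a difference of -1.76 ± 0.58 between WT_MII and WT_FGO that did not pass (limma adjusted p = 0.141). In the MII libraries none of Akt1, Akt2 and Pdpk1 exceeded 43.8 FPKM, whereas the lowest level of Tcl1 was 6671 FPKM.

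Correlations between the members mostly restate the difference between GV and MII libraries given above. Within WT_MII, Tcl1b5 went from 768 FPKM in replicate 1 to 668 in replicate 2, while the other members were higher in replicate 2. Over the 6 libraries, which fall into GV and MII, Pearson's r of log2(FPKM + 1) was 0.9995 between Tcl1 and Tcl1b1 and 0.996 between Tcl1 and Tcl1b2, and lowest, at 0.525, between Tcl1b3 and Tcl1b5, which were at 0 in different GV libraries. Among 1134 other genes whose mean reached 100 FPKM, the 5 whose pattern was most like the summed family were Lbr (r = 0.99986), Txnip (0.99971), Tex19.1 (0.99952), Ccndbp1 (0.99945) and Hif1a (0.99939). These values are a description, since 101 of the 1134 genes had an r over 0.99 and the points share library and depth.

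Of these, Txnip, a thioredoxin-binding protein, came nearest in level, with 97.9 and 117 FPKM in WT_FGO, 3008 and 4062 in WT_MII and 4630 and 4417 in Treat_MII. Lbr, the lamin B receptor, had 0 reads in WT_FGO, 368 and 597 FPKM in WT_MII, with 678 and 688 FPKM in Treat_MII. All of these genes were picked by their correlation with the summed family over the same libraries. Their low values in both GV libraries and high values in the 4 MII libraries follow from that choice and are not a separate result.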

How the data were processed

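Ribo-lite footprints of 6 mouse oocyte libraries (3 groups, 2 libraries each) were analysed. The authors deposited FPKM per gene and library, made from reads on mm10. The submitters' processing notes name cutadapt 1.14, Bowtie2 2.2.2 and STAR 2.5.3a, without their order. The counting program, the annotation and the handling of molecular identifiers and of reads with several matches are not given in the sources used here. No spike-in is stated, so levels are relative to each library's total. Left out were 26 entries with a repeated gene name.

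Reads were recovered from the deposited FPKM and the union coding length of GENCODE mouse release 21, which is on GRCm38 (mm10). All 6 libraries gave whole numbers within 0.02 reads for 98.4% of the genes with a length and for all 6 members. In a coding sequence of 1 kb, 1 read was worth 3.02 to 10.6 FPKM.

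The 15127 genes whose mean reached 1 FPKM were tested. limma 3.58.1 under R 4.3.3 (lmFit, eBayes with trend) was run on log2(FPKM + 1) with 3 groups and no covariate. P-values were adjusted by Benjamini-Hochberg over all tested genes and called under 0.05. The added 1 shrinks the differences of low genes. Where 1 library of a group was at 0, the fitted difference can instead exceed the log2 ratio of the group means. For maturation it was 7.42, 7.99 and 6.54 for Tcl1b3, Tcl1b4 and Tcl1b5, against 5.47, 5.87 and 4.53 with voom weights. Ratios of read rates have exact conditional intervals, and shares have Wilson intervals. The fit was tested on simulated data. Same-numbered libraries were not taken as pairs.

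The genes named were the members, Mtcp1, a list of the Akt pathway (values for Akt1, Akt2, Pdpk1 and those called, while some items are not reported here), coding genes within 250 kb of the cluster, and the 5 genes with the highest Pearson's r with the summed family. The members and lists were chosen with earlier results of these data known. Alternatives were a pseudocount of 0.1, no filter, a mean of at least 5 FPKM, centring, quantile normalization, a replicate term, the compared groups alone, no trend, voom on recovered reads, and leaving out each library. A minimum of 60 reads and the principal coding length were added after the data were seen. RNA-seq and rG4 mapping libraries were not analysed here, so footprints per mRNA were not computed.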

Additional observations from a re-analysis of the deposited data

How the results depend on the processing

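Depth was the main limit, with 46 reads of the family in both WT_FGO libraries together. For maturation (4 members called), 0 were called with the compared groups alone, 3 with a pseudocount of 0.1 or without trend, and 6 with voom weights or a minimum of 60 reads. Leaving out a library gave 0 to 6, with 0 without either Treat_MII library, 3 without either WT_MII library and 6 without either WT_FGO library. For Treat_MII against WT_FGO (4 called), 2 were called with the compared groups alone and 2 without trend, 3 with a pseudocount of 0.1, 6 with voom weights or a minimum of 60 reads, and 2 to 6 on leaving out a library (6 without either WT_FGO library, 3 without either WT_MII library or Treat_MII replicate 2, 2 without Treat_MII replicate 1). For treatment (0 called), voom weights gave 1, the other alternatives gave 0, and leaving out a library gave 0 to 0. The minimum of 60 reads was added after the data were seen and summed reads over all libraries. Each member reached it through the MII libraries, so the calls made with it are no further evidence. The share of all genes called with it was not computed. The cause of the change with a pseudocount, trend or voom was not tested.

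The differences of all members kept their sign in maturation and in Treat_MII against WT_FGO. In treatment, Tcl1b1 turned to -0.0163 and Tcl1b3 to -0.370 without WT_MII replicate 1, over ranges of -0.0163 to 0.618 and -0.370 to 0.548. Centring on the median ratio shifted libraries by up to 0.45 (log2) and moved the summed level in maturation from 5.37 to 5.92. Leaving out a library gave 5.09 to 5.61 for maturation and 0.0824 to 0.608 for treatment.

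Same-numbered libraries did not pair, with correlations of their deviations from the group means of 0.0342, 0.0176 and 0.0189. A replicate block gave 4 calls in maturation, 4 in Treat_MII against WT_FGO and 0 in treatment.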
